A study of Homo sapiens with 45 samples.

Results

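S100 genes encode small calcium sensors of the EF-hand superfamily. The 10 genes described here are S100A4, S100A6, S100A7, S100A8, S100A9, S100A10, S100A11, S100A14, S100A16 and S100P, which were all the rows of the count table whose symbol stood on a given list of S100 calcium-binding proteins, 10 of 57353 symbols. All 10 were present in the table. No measured value entered the rule, but the list was chosen with earlier results of these data known. Shares and medians set against all genes below are therefore descriptions and not support from an independent list. Most S100 proteins work as dimers that open a binding surface when they take up calcium, and each then grips its own target proteins. S100A10 and S100A11 pair with the annexins A2 and A1 at membranes, S100A6 binds CACYBP, and S100A4 binds the heavy chain of nonmuscle myosin (MYH9). S100A8 and S100A9 together form calprotectin, which neutrophils hold in large amounts and which stressed epithelium also makes, and S100A7 (psoriasin) is best known from inflamed epidermis. S100P binds ezrin, and the released forms of several family members bind the receptor AGER. In breast cancer the family is known mainly from work on invasion, inflammation and basal-like tumours.

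The study asked what the DNA damage response scaffold MDC1 does for the estrogen receptor (ER) in lobular breast cancer cells. Polyadenylated RNA was sequenced from MM134 (MDA MB 134VI) and MM330 (MDA MB 330), which are invasive lobular carcinoma lines, and from HCC1428, an invasive ductal carcinoma line. In each line, siER_E2, siFOXA1_E2 and siMDC1_E2 cells were transfected with siRNA against ER (ESR1), against the ER pioneer factor FOXA1 or against MDC1 and then given estradiol (E2) at 100 pM. The siNT_E2 cells had a non-targeting siRNA and the same E2, and the siNT cells had the non-targeting siRNA and the ethanol vehicle at 0.01%. All groups shared 3 days without hormone in charcoal-stripped serum, 24 h between transfection and hormone or vehicle, and 24 h from then to collection. Knockdowns were measured only in the presence of E2. Each of the 15 groups had 3 libraries, 45 in all, and the labels do not say whether these came from separate cultures, so p-values measure the spread between libraries, which may be technical. The lobular type was represented by 2 lines and the ductal type by 1, so differences between lines describe these lines and not tumour types.

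Of the 10 genes, 9 lie on chromosome 1 of GRCh38 and S100P lies on chromosome 4. S100A9 (ENSG00000163220.10, 153357854 to 153361027, plus strand) and S100A8 (ENSG00000143546.9, 153390032 to 153391188, minus strand) are close neighbours, and S100A14 (ENSG00000189334.8, 153614255 to 153616986, minus strand) lies beside S100A16 (ENSG00000188643.10, 153606886 to 153613145, minus strand). S100P (ENSG00000163993.6) spans 6693069 to 6697170 on the plus strand. The promoter windows of the 4 genes on which the results turn are given here from the RefSeq table for GRCh38.p14. S100A8, S100A9 and S100A14 had their highest group means after FOXA1 knockdown in each line, though S100A9 was too low to test in MM134. S100P was lower after FOXA1 knockdown in MM330, was not called in MM134 and was not tested in HCC1428. Each window runs from 250 bases before to 50 bases after an annotated start, 5′ to 3′ on the gene's own strand, and capitals mark 1 arm of an estrogen response element, GGTCA or its reverse complement TGACC.
S100A8 (chr1:153391139-153391438, minus strand, the first of its 3 windows): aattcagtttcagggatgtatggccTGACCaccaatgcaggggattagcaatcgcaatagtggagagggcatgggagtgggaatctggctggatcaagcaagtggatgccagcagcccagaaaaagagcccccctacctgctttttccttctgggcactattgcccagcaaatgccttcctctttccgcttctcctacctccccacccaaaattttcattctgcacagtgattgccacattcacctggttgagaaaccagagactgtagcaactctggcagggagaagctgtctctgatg
S100A9 (chr1:153357604-153357903, plus strand): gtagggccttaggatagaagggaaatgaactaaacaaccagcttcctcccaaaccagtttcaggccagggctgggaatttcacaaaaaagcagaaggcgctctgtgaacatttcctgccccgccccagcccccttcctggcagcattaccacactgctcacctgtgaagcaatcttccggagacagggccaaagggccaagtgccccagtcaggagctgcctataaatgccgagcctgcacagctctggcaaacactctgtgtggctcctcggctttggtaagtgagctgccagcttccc
S100A14 (chr1:153616276-153616575, minus strand): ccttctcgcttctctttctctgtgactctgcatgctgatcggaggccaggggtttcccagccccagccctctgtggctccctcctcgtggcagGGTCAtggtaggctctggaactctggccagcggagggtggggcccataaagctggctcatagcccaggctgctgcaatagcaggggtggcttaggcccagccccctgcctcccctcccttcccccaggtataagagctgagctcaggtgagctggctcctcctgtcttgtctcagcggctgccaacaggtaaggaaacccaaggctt
S100P (chr4:6693628-6693927, plus strand): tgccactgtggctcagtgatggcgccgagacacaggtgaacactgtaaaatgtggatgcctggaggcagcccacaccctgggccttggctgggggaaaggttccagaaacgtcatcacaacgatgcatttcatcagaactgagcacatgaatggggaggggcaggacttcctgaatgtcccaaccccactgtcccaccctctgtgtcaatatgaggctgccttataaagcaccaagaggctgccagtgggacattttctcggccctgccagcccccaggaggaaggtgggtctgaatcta

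All 10 genes were found in the promoter table, with 13 windows among them. Searched on both strands, this arm stood in windows of 5 genes, S100A4, S100A7, S100A8, S100A14 and S100A16, against 42.6% of all genes in the table and 37.4% of its 35116 windows. Counted from the annotated start of each window, it lay at -225 in the S100A8 window shown and at -157 in the S100A14 window. Of the S100A8 windows not shown, window 3 held it at -13 and window 2 did not hold it. A full ER element, made of GGTCA, 3 bases of any kind and TGACC, was found in no window of the 10 genes and in 0.0570% of all windows. The forkhead motif TGTTTAC and the AP-1 motif TGANTCA were found in none of the 10 genes either, against 4.19% and 9.37% of all genes in the table, on both strands. With 10 genes, shares this low leave little to read from an absence. These counts describe letters in short windows and say nothing of binding elsewhere.

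Library totals lay between 21043426 and 36738812 counts, with similar ranges in the 3 lines. The targeted transcripts fell in the groups labelled for them. ESR1 averaged 60.2 CPM (counts scaled to library size) in siER_E2 and 533 CPM in siNT_E2 libraries of MM134, 22.2 and 284 CPM in MM330, and 217 and 426 CPM in HCC1428. FOXA1 averaged 111 CPM in siFOXA1_E2 against 437 CPM in siNT_E2 libraries of MM134, 138 against 501 CPM in MM330 and 91.4 against 279 CPM in HCC1428. MDC1 averaged 40.0 CPM in siMDC1_E2 against 173 CPM in siNT_E2 libraries of MM134, 41.2 against 201 CPM in MM330 and 45.5 against 173 CPM in HCC1428. MDC1 was itself at 66.6 CPM in the siNT libraries of HCC1428 and 144 CPM in those of MM330, below its siNT_E2 levels. The other knockdowns also left MDC1 below siNT_E2, at 110 CPM in siER_E2 and 135 CPM in siFOXA1_E2 libraries of MM134. These groups had 102 and 123 CPM of MDC1 in MM330, and 78.5 and 95.3 CPM in HCC1428. ESR1 also averaged less than in siNT_E2 libraries after the other knockdowns, at 108 CPM in siFOXA1_E2 and 120.5 CPM in siMDC1_E2 libraries of MM134, 208 and 147 CPM in MM330, and 392 and 394 CPM in HCC1428. A group of 11 libraries, found in all 3 lines but uneven over groups, had 0.337 to 0.494% of their counts at processed pseudogenes. The share was 0.123 to 0.158% in the other 34, and the 34 were also fitted alone. Within HCC1428 the higher share occurred in siER_E2 replicates 2 and 3, siNT replicates 1 and 2 and siNT_E2 replicate 2. All siFOXA1_E2 and siMDC1_E2 libraries of HCC1428 had the lower share. Within MM134 only siER_E2 replicate 3 and siFOXA1_E2 replicate 1 had the higher share. Pseudogene share and treatment were thus partly mixed, most of all in HCC1428. All 8 luminal epithelial markers reached at least 1 CPM in every line.

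Without hormone, each line had its own S100 profile. Per kilobase of exon, S100A11 led in MM134 at 405 ± 12.3 CPM per kb (mean ± SD, n = 3), followed by S100A6 at 40.8 ± 1.60 and S100A10 at 35.2 ± 1.76. S100A16 at 3.98 ± 0.551 and S100A14 at 3.79 ± 0.378 lay within each other's spread there, and so did S100P at 0.573 ± 0.204 and S100A4 at 0.503 ± 0.143. MM330 held the most S100 RNA, with 2140.3 ± 109 CPM summed over the 10 genes against 382 ± 9.74 CPM in MM134 and 477 ± 13.4 CPM in HCC1428, and was led by S100A6 at 705 ± 37.5 CPM per kb, then S100A16 at 359 ± 22.4, S100A14 at 325 ± 19.0 and S100A11 at 314 ± 4.04. Among the last 3 of these, each overlapped the next within its spread. S100A10 (124 ± 6.59), S100P (17.8 ± 1.66) and S100A4 (1.42 ± 0.102) followed in MM330, each clearly below the one before. In HCC1428, S100A11 (241 ± 14.8 CPM per kb) and S100A10 (184 ± 2.35) stood far above S100A16 (10.1 ± 0.611), and S100A8 (7.89 ± 0.916), S100A9 (3.21 ± 0.425) and S100A14 (1.29 ± 0.129) came next. S100A6, the leading gene of MM330, stood at 0.498 ± 0.104 CPM per kb in HCC1428, above S100A4 and S100P, which overlapped at 0.207 ± 0.0892 and 0.111 ± 0.0258. S100A6 shares 23 exon bases with an antisense gene, BX470102.1, whose reads could not be told apart there. S100A7 had at most 4 counts in any library and was tested in no line, and its near-identical copy S100A7A makes even these counts uncertain.

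**Figure D1:**
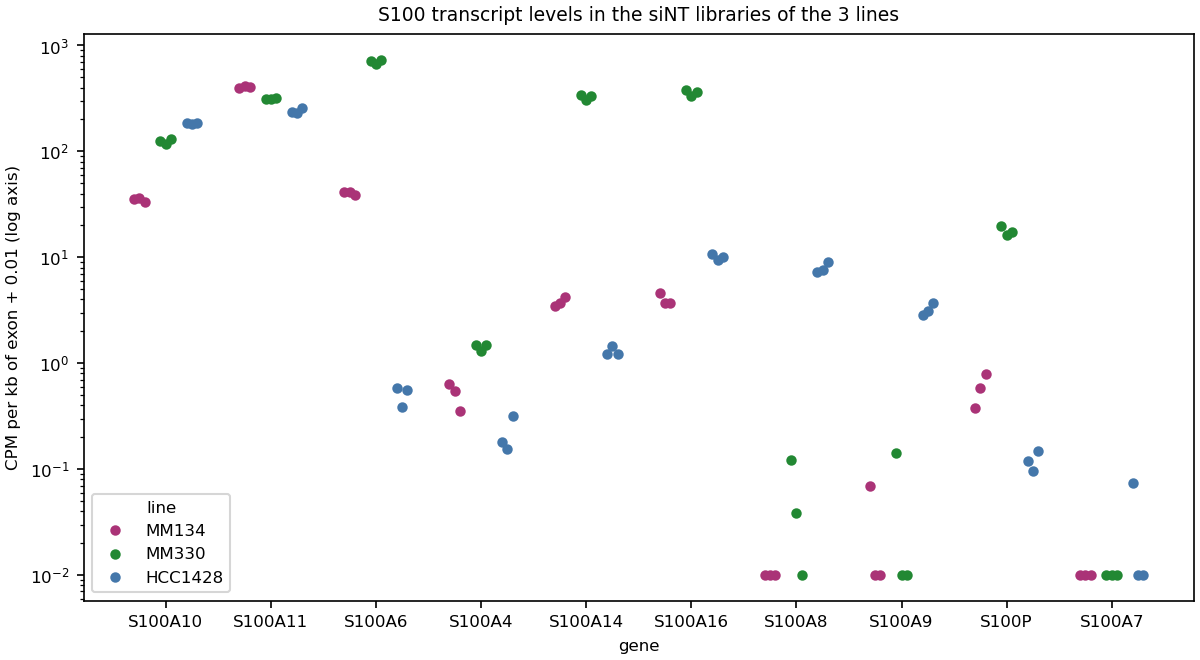
CPM per kilobase of exon plus 0.01, on a log axis, for the 10 S100 genes in the siNT libraries of MM134, MM330 and HCC1428, 1 point per library. S100A6, S100A14, S100A16 and S100P stood highest in MM330, S100A8 and S100A9 stood highest in HCC1428, and S100A11 was high in all 3 lines, with means of 405, 314 and 241 CPM per kb in MM134, MM330 and HCC1428.

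In the siNT libraries, S100A6 had 40.5, 40.5 and 37.8 CPM in MM134, 695, 644 and 715 CPM in MM330 and 0.555, 0.368 and 0.529 CPM in HCC1428. S100A14 had 4.44, 4.70 and 5.37 CPM in MM134, 434, 388 and 424 CPM in MM330 and 1.56, 1.84 and 1.55 CPM in HCC1428. No library of one line reached into the range of another for either gene. Of the 9 genes tested between lines, 9 differed between MM134 and HCC1428, where 75.6% of all genes did, 9 between MM330 and HCC1428 (73.0% of all genes), and 7 between MM134 and MM330 (72.4%), so a difference between lines was the rule for any gene. Log2 differences of MM330 over HCC1428 were 10.45 ± 0.14 for S100A6, 7.97 ± 0.11 for S100A14, 7.28 ± 0.36 for S100P and 5.15 ± 0.080 for S100A16 (SE). S100A8 ran the other way, with 0 counts in the MM134 libraries against 670 in those of HCC1428, at least 254-fold lower with the floor of 3 counts set over the group. S100A10 was lower in MM134 than in HCC1428 by a log2 difference of -2.38 ± 0.067 (SE, adjusted p = 3.69e-30).

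With E2, S100A6, S100A10, S100A11, S100A14 and S100A16 were lower in MM134, S100A6, S100A14, S100A16 and S100P in MM330, and S100A9 in HCC1428. The comparison asks what the hormone alone did, siNT_E2 against siNT. In MM134, 5 of 8 tested genes were called lower and none higher at an adjusted p below 0.05 (edgeR quasi-likelihood test, Benjamini-Hochberg adjustment over all genes tested), where 54.4% of all genes were called and 27.2% were called lower. The median log2 change over the 8 genes was -0.75, against -0.03 over all genes, and -0.78 over the 7 that had more than 3 counts in either group. In MM330, 4 of 9 were called lower and none higher (26.3% of all genes called, 12.6% lower), with a median of -0.29, or -0.27 over the 8 above 3 counts. In HCC1428 1 of 7 was called, S100A9 (54.8% of all genes called, 25.7% lower), with a median of -0.12.

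The annexin partners fell in MM134. S100A11 had 188, 192 and 186 CPM in siNT_E2 and 268, 284 and 275 CPM in siNT libraries of MM134. S100A10 had 34.9, 32.2 and 32.4 CPM in siNT_E2 and 55.1, 56.5 and 51.2 CPM in siNT libraries. Every E2 library lay below every vehicle library, and the log2 fold changes were -0.56 ± 0.031 (SE, adjusted p = 1.2e-12) for S100A11 and -0.72 ± 0.047 (SE, adjusted p = 1.86e-11) for S100A10. In MM330 and HCC1428 neither gene passed the test, with log2 changes between -0.08 and 0.06. S100A6, the CACYBP partner, had 24.5, 20.7 and 20.2 CPM in siNT_E2 and 40.5, 40.5 and 37.8 CPM in siNT libraries of MM134, without overlap, a log2 change of -0.87 ± 0.059 (SE, adjusted p = 3.28e-11). In MM330 the same gene changed by -0.19 (adjusted p = 0.0194), a call that did not hold without siNT replicate 1, siNT replicate 3 or siNT_E2 replicate 1, with adjusted p = 0.0559, 0.0898 and 0.0901. S100A4, the myosin partner, passed in neither line (-0.50 in MM134 and -0.29 in MM330).

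Among the epithelial neighbours, S100A14 fell by 0.93 on the log2 scale in MM134 (adjusted p = 2.6e-06) and fell by 0.25 in MM330 (0.0028), and S100A16 fell by 0.78 in MM134 (1.45e-05) and fell by 0.31 in MM330 (0.000195). S100A16 had 451, 502 and 502 CPM in siNT_E2 and 641, 567 and 622 CPM in siNT libraries of MM330, so the groups did not overlap. S100P, the ezrin partner, showed the largest fall in MM330, with 7.82, 8.76 and 8.34 CPM in siNT_E2 and 25.1, 21.0 and 22.3 CPM in siNT libraries. The 3 E2 libraries lay close together below the vehicle libraries, with a log2 change of -1.44 ± 0.12 (SE, adjusted p = 1.42e-07). In MM134 S100P stood under 1 CPM in both groups and was not called (-0.85, adjusted p = 0.103), except without the filter on low counts and without siNT_E2 replicate 1, at -1.41 (adjusted p = 0.0266). S100A9 in HCC1428 had 1.08, 1.50 and 0.702 CPM in siNT_E2 and 1.63, 1.80 and 2.11 CPM in siNT libraries, again without overlap, a change of -0.79 ± 0.21 (SE, adjusted p = 0.00353). Its partner S100A8 changed by -0.18 there, not called, and was called with the pseudogene class as a covariate, at -0.22 (adjusted p = 0.0392). The change was -0.43 when libraries of high pseudogene share were left out, which left only replicate 3 of the siNT libraries.

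**Figure D2:**
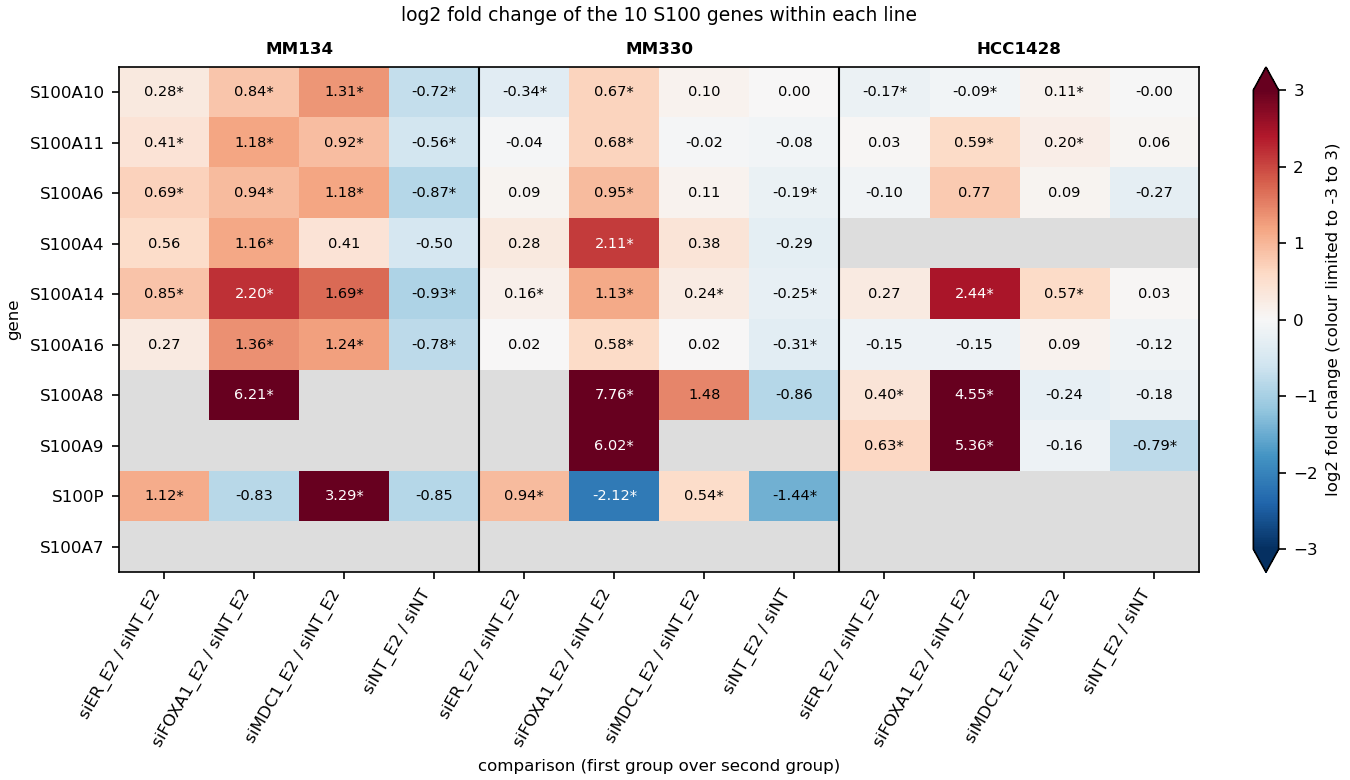
Log2 fold changes of the 10 S100 genes in the 12 main comparisons, 4 in each of MM134, MM330 and HCC1428, with the first group of each label over the second. Asterisks mark an adjusted p below 0.05, colour is limited to 3 on the log2 scale, and grey marks genes not tested or with at most 3 counts in both groups. In the siFOXA1_E2 columns, S100A8 in MM134 and S100A8 and S100A9 in MM330 passed the low-count filter only through siFOXA1_E2 libraries. Without them, 6 of 7, 6 of 7 and 4 of 7 tested genes carry a positive change with an asterisk in MM134, MM330 and HCC1428. Over all genes, 27.9%, 24.4% and 24.1% were called higher in these lines. S100P is negative there in MM330, at -2.12.

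ER knockdown raised S100A6, S100A10, S100A11, S100A14 and S100P in MM134, S100A14 and S100P in MM330, and S100A8 and S100A9 in HCC1428, and S100A10 fell in MM330 and HCC1428. The comparison siER_E2 against siNT_E2 asks which transcripts need ER while E2 is present, and it shares its siNT_E2 libraries with the E2 comparison. In MM134, ER knockdown put 5 of 8 genes higher and none lower (57.2% of all genes called, 29.3% higher). In MM330, 2 of 9 were called higher and 1 lower (32.5% of all genes called, 15.1% higher and 17.4% lower), and in HCC1428 2 of 7 higher and 1 lower (51.2% called, 22.5% higher and 28.7% lower). Median log2 changes over the tested genes were 0.49, 0.02 and 0.03 in MM134, MM330 and HCC1428, or 0.56 and 0.09 in the first pair over the 7 genes above 3 counts in either group, and 0.04 over all genes of MM134.

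S100A11 had 253, 243 and 246 CPM in siER_E2 and 188, 192 and 186 CPM in siNT_E2 libraries of MM134, and S100A6 had 34.2, 35.2 and 35.1 CPM in siER_E2 and 24.5, 20.7 and 20.2 CPM in siNT_E2 libraries. Neither pair of groups overlapped, and the log2 changes were 0.41 ± 0.031 (SE, adjusted p = 1.67e-10) and 0.69 ± 0.059 (SE, adjusted p = 1.27e-09). S100A14 rose by 0.85 ± 0.13 (SE, adjusted p = 8.95e-06) and S100A10 by 0.28 ± 0.049 (SE, adjusted p = 3.05e-05), while S100A16 missed the threshold at 0.27 ± 0.13 (SE, adjusted p = 0.0727). Without siER_E2 replicate 3, a library with the higher pseudogene share, S100A16 was called at 0.37 (adjusted p = 0.0236). Compared with siNT, the level without hormone, the siER_E2 libraries of MM134 held less S100A10 (-0.44), S100A16 (-0.50), S100A6 (-0.17) and S100A11 (-0.14), all called, in a contrast that called 32.3% of all genes. S100A10 went the other way in MM330, with 149.6, 158 and 143 CPM in siER_E2 and 178, 195 and 197 CPM in siNT_E2 libraries, a change of -0.34 ± 0.067 (SE, adjusted p = 0.000774). It was also lower in HCC1428, with a log2 change of -0.17 ± 0.033 (SE, adjusted p = 0.000233), and of -0.11 without siNT_E2 replicate 4.

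S100P had 14.1, 18.5 and 15.4 CPM in siER_E2 and 7.82, 8.76 and 8.34 CPM in siNT_E2 libraries of MM330, so all siER_E2 libraries were higher. The log2 change was 0.94 ± 0.12 (SE, adjusted p = 1.43e-05), and the level stayed below that of siNT, with a log2 difference of -0.49 (adjusted p = 0.00629, 20.2% of all genes called). In MM134 S100P had 0.513, 1.36 and 0.784 CPM in siER_E2 and 0.634, 0.389 and 0.149 CPM in siNT_E2 libraries, which overlapped. Its call there (1.12 ± 0.42 SE, adjusted p = 0.0283) was lost without siER_E2 replicate 2, at 0.70 (adjusted p = 0.202), and without siNT_E2 replicate 2 or 3, at 1.09 (adjusted p = 0.0723) and 0.77 (adjusted p = 0.136). Calprotectin moved slightly in HCC1428, where S100A8 had 10.6, 8.35 and 9.08 CPM in siER_E2 and 7.28, 7.01 and 6.55 CPM in siNT_E2 libraries. The groups did not overlap, with a change of 0.40 ± 0.092 (SE, adjusted p = 0.00123) for S100A8. The S100A8 change was 0.65 when libraries of high pseudogene share were left out, which left only replicate 1 of the siER_E2 libraries. S100A9 was called at 0.63 ± 0.21 (SE, adjusted p = 0.0187) and lost the call without siER_E2 replicate 3 (0.56, adjusted p = 0.0695) and without siNT_E2 replicate 4 (0.41, adjusted p = 0.107). S100A14 rose by 0.16 ± 0.055 (SE, adjusted p = 0.0358) in MM330, a call lost without any 1 of siER_E2 replicates 1 and 2 and the 3 siNT_E2 replicates, with adjusted p between 0.0635 and 0.152.

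After FOXA1 knockdown, calprotectin RNA appeared where it had been all but missing in MM134 and MM330 and rose further in HCC1428, S100A14 rose in all 3 lines, and S100P fell in MM330. The comparison siFOXA1_E2 against siNT_E2 asks what depends on the pioneer factor in the presence of E2. S100A8 in MM134 and S100A8 and S100A9 in MM330 passed the filter on low counts only through the siFOXA1_E2 libraries, so their calls in this comparison follow from the filter and lend it no support. Without them, 6 of 7 genes were called higher and none lower in MM134 (56.3% of all genes called, 27.9% higher and 28.5% lower). In MM330, 6 of 7 were called higher and 1 lower (49.0% called, 24.4% higher and 24.6% lower), and in HCC1428 4 of 7 were called higher and 1 lower (53.6% called, 24.1% higher and 29.5% lower). Median log2 changes over these 7 genes of each line were 1.16, 0.68 and 0.77, against 0.01, -0.01 and -0.03 over all genes. The summed level of the 10 genes was 551 ± 21.4 CPM in siFOXA1_E2 and 251 ± 4.75 CPM in siNT_E2 libraries of MM134, 3271 ± 403 and 1822 ± 87.1 CPM in MM330, and 765 ± 15.3 and 475 ± 3.32 CPM in HCC1428 (SD, n = 3 each).

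S100A8 had 165, 178 and 157 CPM in siFOXA1_E2 and 7.28, 7.01 and 6.55 CPM in siNT_E2 libraries of HCC1428. S100A9 had 46.6, 45.4 and 41.4 CPM in siFOXA1_E2 and 1.08, 1.50 and 0.702 CPM in siNT_E2 libraries. Both genes stood above every library of the other groups of the line, with log2 changes of 4.55 ± 0.077 (SE, adjusted p = 1.12e-17) and 5.36 ± 0.17 (SE, adjusted p = 1.03e-14). In MM330 S100A8 had 4.16, 7.32 and 6.69 CPM in siFOXA1_E2 and 0.0340, 0.0355 and 0 CPM in siNT_E2 libraries. The groups summed to 480 and 2 counts, a ratio of 265 (95% exact interval 73.0 to 2196) that covers counting error only. In MM134 S100A8 had 2.25, 3.14 and 2.44 CPM in siFOXA1_E2 and 0, 0.0649 and 0.0373 CPM in siNT_E2 libraries, 264 against 3 counts and a ratio of 82.8 (95% exact interval 28.0 to 404). S100A9 followed at a lower level, with 83 against 1 count in MM330 (91.7, 95% exact interval 16.013 to 3666) and 20 against 1 count in MM134 (18.8, 95% exact interval 3.01 to 780.1), where it was too low to be tested. The MM134 and MM330 values are given as descriptions, for the reason of the filter.

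**Figure D3:**
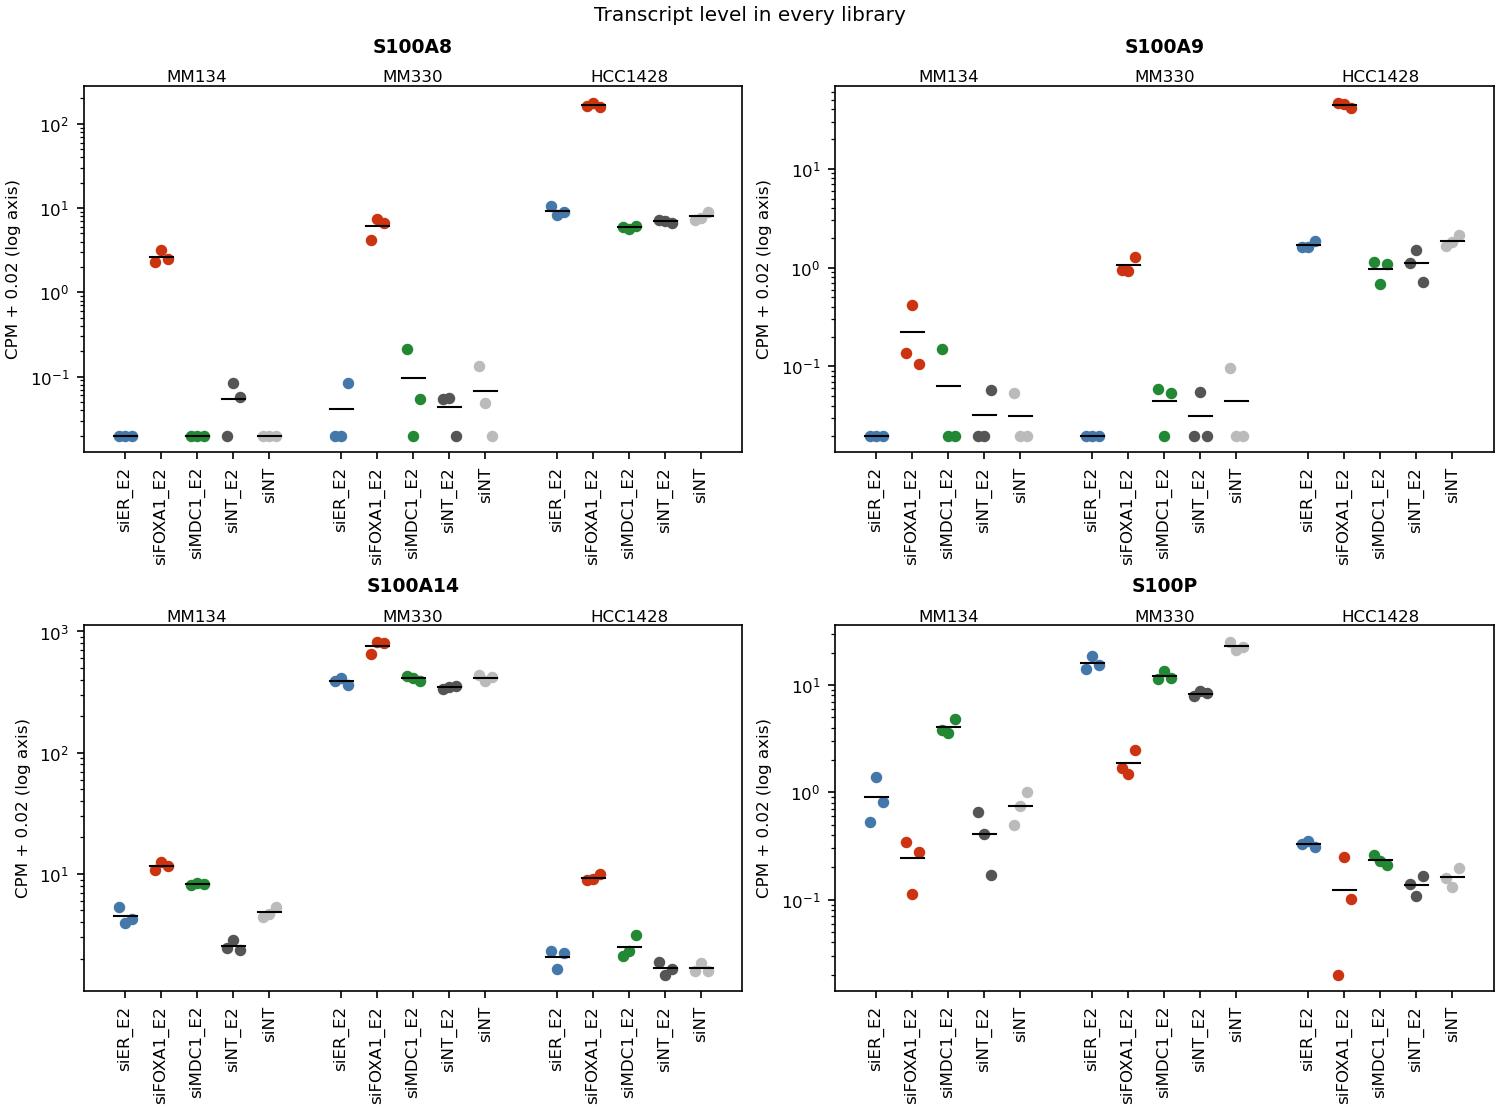
CPM plus 0.02, on a log axis, of S100A8, S100A9, S100A14 and S100P in every library of the 5 groups of MM134, MM330 and HCC1428, with points for libraries and bars for group means. S100A8, S100A9 and S100A14 peak in the siFOXA1_E2 libraries of each line, while S100P is lowest there in MM330 and peaks in siMDC1_E2 in MM134 and in siNT in MM330.

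The ratio of S100A8 to S100A9 counts, given without a test, was 3.53 to 3.92 in siFOXA1_E2, 5.30 to 8.63 in siMDC1_E2, 4.98 to 6.65 in siER_E2, 4.68 to 9.33 in siNT_E2 and 4.20 to 4.45 in siNT libraries of HCC1428, with few S100A9 counts outside siFOXA1_E2. In the siFOXA1_E2 libraries of MM330 it was 4.45 to 8.10. Neutrophil and myeloid markers did not rise with calprotectin in MM134 or HCC1428. The 10 markers summed to 0.0861 to 0.462 CPM in siFOXA1_E2 and 0.149 to 0.238 CPM in siNT_E2 libraries of MM134, and to 0.627 to 0.948 CPM and 0.661 to 0.933 CPM in HCC1428, with none at 1 CPM or more in either line. In MM330 they summed to 3.70 to 8.27 CPM in siFOXA1_E2 and 2.13 to 2.98 CPM in siNT_E2 libraries. That was mostly CSF3R, the receptor for granulocyte colony-stimulating factor, at 4.57 CPM in siFOXA1_E2 and 2.04 CPM in siNT_E2 libraries, while the leukocyte gene PTPRC had 0 counts in both groups of MM330. Luminal markers summed to a mean of 15660.1 CPM in siFOXA1_E2 and 12141 CPM in siNT_E2 libraries of MM134, 18897 and 10552 CPM in MM330, and 16594 and 14202 CPM in HCC1428. Keratinocyte and basal markers summed to 27.3 CPM in siFOXA1_E2 and 29.6 CPM in siNT_E2 libraries of MM134, 52.3 and 40.2 CPM in MM330, and 26.1 and 18.8 CPM in HCC1428, with 2 of 7 at 1 CPM or more in each line. Fibroblast markers summed to 73.8 and 97.7 CPM, 35.7 and 28.9 CPM, and 53.8 and 81.6 CPM in the same order, with 1 of 6 at 1 CPM or more. The part of these markers in the result was not tested.

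S100A14 was raised in all 3 lines from very different levels. It had 10.8, 12.5 and 11.7 CPM in siFOXA1_E2 and 2.43, 2.85 and 2.35 CPM in siNT_E2 libraries of MM134, 655, 819 and 799.9 and 335, 348 and 354 CPM in MM330, and 8.82, 9.12 and 9.89 and 1.87, 1.46 and 1.64 CPM in HCC1428. No siFOXA1_E2 library overlapped a siNT_E2 library of its line. The log2 changes were 2.20 ± 0.13 (SE, adjusted p = 1.29e-12), 1.13 ± 0.056 (SE, adjusted p = 8.4e-11) and 2.44 ± 0.17 (SE, adjusted p = 6.28e-10) in MM134, MM330 and HCC1428. Its neighbour S100A16 rose with it in MM134 (1.36 ± 0.12 SE, adjusted p = 2.24e-09) and MM330 (0.58 ± 0.052 SE, adjusted p = 7.92e-08) but not detectably in HCC1428, where it had 14.4, 15.4 and 13.6 CPM in siFOXA1_E2 and 16.5, 15.6 and 14.9 CPM in siNT_E2 libraries, a change of -0.15 ± 0.073 (SE, adjusted p = 0.0899).

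The annexin A1 partner S100A11 rose in every line. It had 407, 435 and 432 CPM in siFOXA1_E2 and 188, 192 and 186 CPM in siNT_E2 libraries of MM134, 265, 348 and 348 and 192, 197 and 209 CPM in MM330, and 258, 258 and 261 and 175, 174 and 157 CPM in HCC1428, never overlapping. Log2 changes were 1.18 ± 0.031 (SE, adjusted p = 2.08e-18), 0.68 ± 0.065 (SE, adjusted p = 1.88e-07) and 0.59 ± 0.052 (SE, adjusted p = 1.87e-08). S100A10 rose in MM134 (0.84 ± 0.047 SE, adjusted p = 8.36e-13) and MM330 (0.67 ± 0.067 SE, adjusted p = 2.95e-07). In HCC1428 it changed by -0.09 ± 0.033 (SE, adjusted p = 0.0297) with overlapping groups, a call lost without siFOXA1_E2 replicate 1 or 3 or siNT_E2 replicate 3 or 4, with adjusted p between 0.0703 and 0.433, and lost also with RLE scaling, without the filter and in DESeq2. S100A6 had 987, 1264 and 1189 CPM in siFOXA1_E2 and 557, 618 and 603 CPM in siNT_E2 libraries of MM330, without overlap, and rose by 0.95 ± 0.057 (SE, adjusted p = 8.81e-10) there and by 0.94 ± 0.058 (SE, adjusted p = 5.15e-12) in MM134. S100A4 had 3.08, 5.82 and 6.30 CPM in siFOXA1_E2 and 0.952, 1.38 and 1.17 CPM in siNT_E2 libraries of MM330, with siFOXA1_E2 replicate 1 lower than the other two, a change of 2.11 ± 0.26 (SE, adjusted p = 4.5e-06). In MM134 it stood under 1.5 CPM, and its call (1.16 ± 0.40 SE, adjusted p = 0.0168) was lost without siFOXA1_E2 replicate 3 (0.82, adjusted p = 0.136) and without siNT_E2 replicate 2 (1.04, adjusted p = 0.0691) or 3 (0.94, adjusted p = 0.0837).

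S100P was the exception. It had 1.68, 1.46 and 2.45 CPM in siFOXA1_E2 and 7.82, 8.76 and 8.34 CPM in siNT_E2 libraries of MM330, every siFOXA1_E2 library being lower, a change of -2.12 ± 0.15 (SE, adjusted p = 5.72e-09). Against siNT libraries, S100P of siFOXA1_E2 libraries fell by 3.56 on the same scale, in a contrast that called 46.9% of all genes. In MM134 the direction was the same at -0.83 ± 0.50 (SE, adjusted p = 0.17), which did not pass, and was called only without siNT_E2 replicate 3 (-1.18, adjusted p = 0.0497). In HCC1428 no S100P library exceeded 0.333 CPM, and the gene was not tested there.

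**Figure D4:**
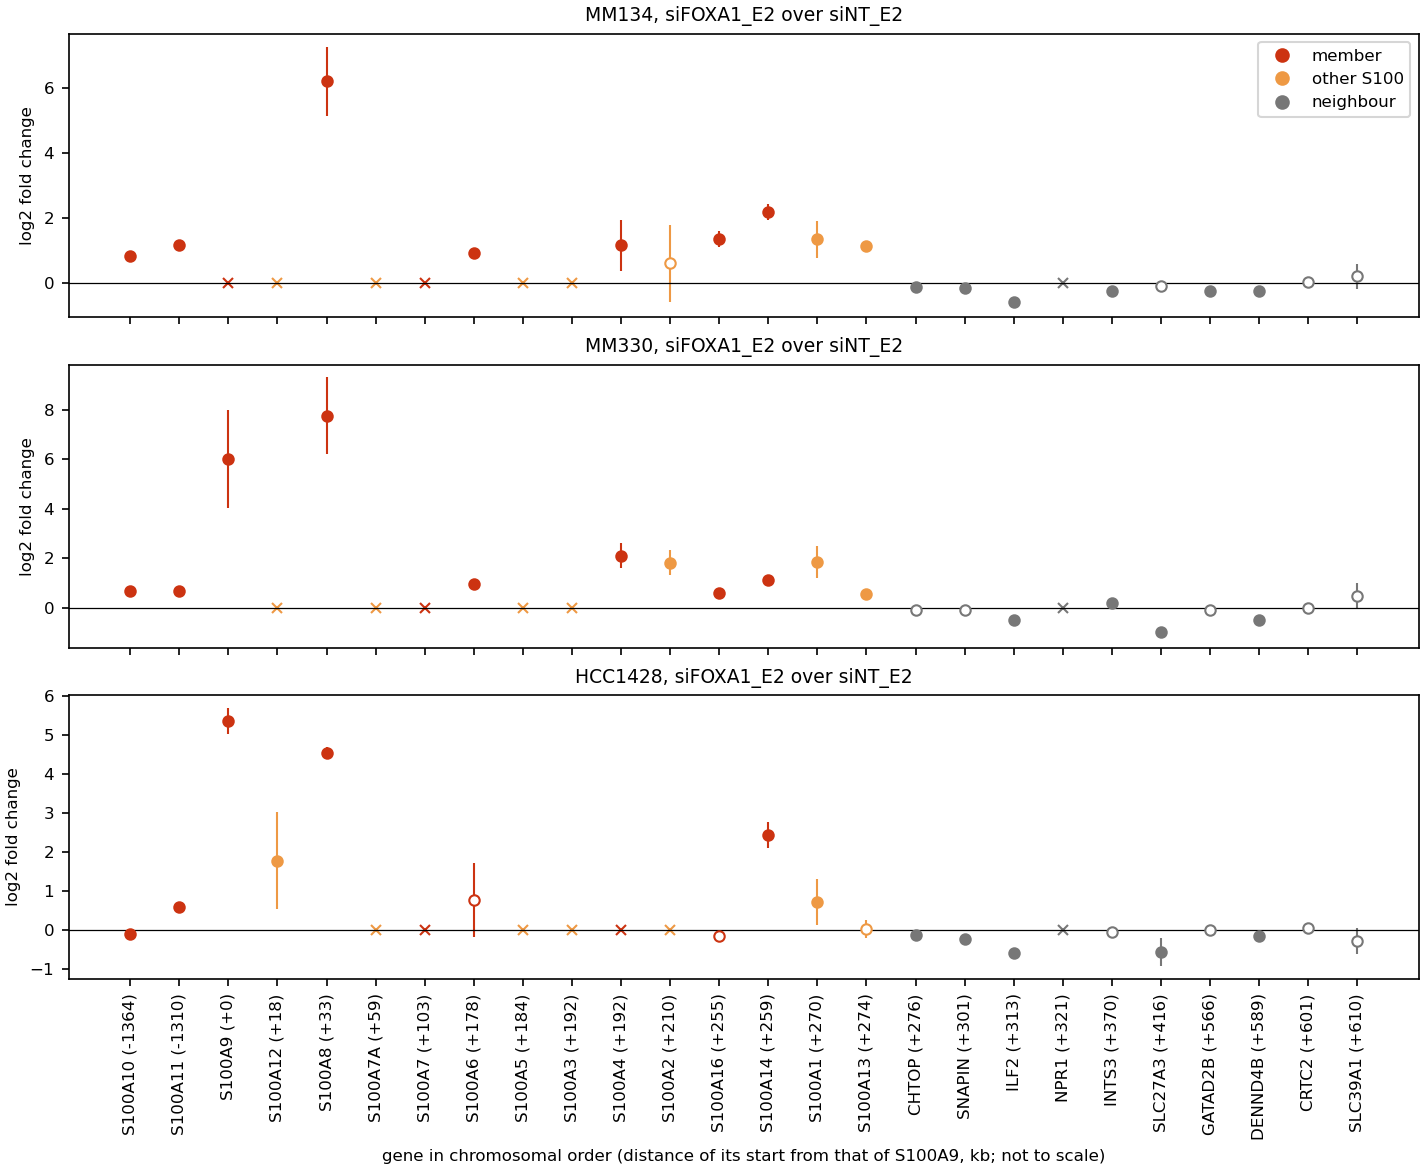
Log2 fold changes of siFOXA1_E2 over siNT_E2 for the 9 chromosome 1 genes described here (red, named member), other S100 genes (orange) and genes beside them (grey), in chromosomal order, in MM134, MM330 and HCC1428. Bars are 95% intervals from the SE, filled points passed an adjusted p of 0.05, and crosses on the 0 line were not tested. The S100 genes that passed are above 0 except S100A10 in HCC1428, though S100A8 in MM134, S100A8 and S100A9 in MM330 and S100A12 in HCC1428 passed the filter only through siFOXA1_E2 libraries. The grey genes all lie beyond S100A14 on the far side from S100A9. Of 9 tested, 6 are called below 0 in MM134, 3 in MM330 and 5 in HCC1428, and 1 is called above 0 in MM330. Over all genes, 28.5%, 24.6% and 29.5% were called lower in these lines.

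Other S100 genes were also called after FOXA1 knockdown. Of 10 further family members, 3 could be tested in each line, and 2 rose in MM134, 3 in MM330 and, S100A12 set aside, 1 of 2 in HCC1428, with none lower, against 27.9%, 24.4% and 24.1% of all genes higher. S100A1 changed by 1.35 ± 0.28 (SE, adjusted p = 0.00032) in MM134, 1.84 ± 0.34 (SE, adjusted p = 0.000217) in MM330 and 0.72 ± 0.30 (SE, adjusted p = 0.0492) in HCC1428. S100A13 had 19.2 ± 0.751 CPM in siFOXA1_E2 and 8.69 ± 0.247 CPM in siNT_E2 libraries of MM134, a change of 1.15 ± 0.074 (SE, adjusted p = 1.06e-11), and passed in MM330 (0.56 ± 0.073 SE, adjusted p = 6.23e-06) but not in HCC1428 (0.03 ± 0.11 SE, adjusted p = 0.825). S100A1 and S100A13 overlap on opposite strands over 235 exon bases, and the strand setting of the counting was not given in the sources used here, so their reads cannot be told apart there. S100A1, S100A2 and S100A12 stayed under 10 CPM and are named after their values were seen. S100A2 rose in MM330 (1.82 ± 0.26 SE, adjusted p = 1.78e-05). S100A12, the calprotectin-like gene between S100A8 and S100A9, passed the filter in HCC1428 only through siFOXA1_E2 libraries, with 84 counts over the 3 of them against 27 in siNT_E2 libraries, a description only. Genes beside the cluster, all 276 to 610 kb from the start of S100A9 and beyond S100A14, were read as a list of 9 testable genes. None rose and 6 fell in MM134, 1 rose and 3 fell in MM330, and none rose and 5 fell in HCC1428 (28.5%, 24.6% and 29.5% of all genes lower), with median log2 changes of -0.15, -0.10 and -0.14. ILF2, which encodes an RNA-binding protein, had 131 ± 5.82 CPM in siFOXA1_E2 and 191 ± 2.21 CPM in siNT_E2 libraries of HCC1428 (-0.58 ± 0.038 SE, adjusted p = 2.51e-10). Of other EF-hand calcium sensors, 4 rose and 8 fell of 14 in MM134, 1 rose and 11 fell of 15 in MM330, and 1 rose and 9 fell of 15 in HCC1428 (27.9%, 24.4% and 24.1% of all genes higher, and the shares lower as for the genes beside the cluster), with medians of -0.20, -0.27 and -0.14, led by EFHD1, a mitochondrial calcium sensor, at -1.40, -1.68 and -1.13. Epidermal differentiation genes were mostly too low to test, with 1, 3 and 5 of 22 tested in MM134, MM330 and HCC1428. Of these, 1 rose and none fell in MM134, 1 rose and 1 fell in MM330, and 3 rose and 1 fell in HCC1428. Their median log2 changes were 0.25, -0.19 and 1.66, over too few genes to set against the shares of all genes. Involucrin (IVL), which builds the cornified envelope, had 25.9 ± 1.82 CPM in siFOXA1_E2 and 4.29 ± 1.17 CPM in siNT_E2 libraries of HCC1428 (2.55 ± 0.16 SE, adjusted p = 1.15e-10).

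Binding partners of S100 proteins moved in both directions after FOXA1 knockdown, with 9 higher and 5 lower of 16 tested in MM134, 6 and 5 in MM330, and 6 and 5 in HCC1428, where 56.3%, 49.0% and 53.6% of all genes were called in either direction, and median log2 changes of 0.20, 0.05 and 0.01. ANXA1, the partner of S100A11, had 43.5 ± 2.94 CPM in siFOXA1_E2 and 3.43 ± 0.284 CPM in siNT_E2 libraries of MM134 and 82.3 ± 7.002 and 11.3 ± 0.675 CPM in MM330 (SD, n = 3 each). It rose by 3.67 ± 0.089 (SE, adjusted p = 5.12e-19) in MM134 and by 2.86 ± 0.084 (SE, adjusted p = 3.93e-13) in MM330. CD36, a fatty acid receptor that binds the arachidonic acid carried by calprotectin, rose in HCC1428, with 169 ± 1.65 CPM in siFOXA1_E2 and 36.5 ± 3.29 CPM in siNT_E2 libraries (2.17 ± 0.053 SE, adjusted p = 6.16e-16). IQGAP1 rose by 1.09 in MM134 and 0.81 in HCC1428, and the calcium-dependent membrane binder ANXA6 had log2 changes of -0.43, -0.53 and -0.96 in MM134, MM330 and HCC1428, all called.

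After MDC1 knockdown S100A6, S100A10, S100A11, S100A14, S100A16 and S100P rose in MM134, S100A14 and S100P in MM330, and S100A10, S100A11 and S100A14 in HCC1428. The comparison siMDC1_E2 against siNT_E2 asks which of these transcripts depend on MDC1 under E2. In MM134, 6 of 8 genes rose and none fell (50.3% of all genes called, 25.4% higher and 25.0% lower). In MM330, 2 of 9 were called higher and none lower (20.8% called, 10.4% higher), and in HCC1428 3 of 7 higher and none lower (29.1% called, 13.2% higher). Median log2 changes over the tested genes were 1.21 in MM134, 0.24 in MM330 and 0.09 in HCC1428, or 1.24 and 0.17 in the first pair without S100 genes at 3 counts or fewer in both groups. Medians over all genes were close to 0. The comparison shares its siNT_E2 libraries with the others.

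S100P had 3.76, 3.58 and 4.84 CPM in siMDC1_E2 and 0.634, 0.389 and 0.149 CPM in siNT_E2 libraries of MM134. Every siMDC1_E2 library stood above every other library of that line, and the log2 change was 3.29 ± 0.39 (SE, adjusted p = 2.64e-07). It was also higher than in siNT by 2.44 (49.1% of all genes called) and than in siER_E2 by 2.17 (45.6% called), both called. In MM330 S100P had 11.4, 13.4 and 11.6 CPM in siMDC1_E2 and 7.82, 8.76 and 8.34 CPM in siNT_E2 libraries, without overlap, a change of 0.54 ± 0.12 (SE, adjusted p = 0.00455), and of 0.54 (adjusted p = 0.0508) when libraries of high pseudogene share were left out. There it stayed below siNT, with a log2 difference of -0.90 (adjusted p = 1.49e-05, 34.9% of all genes called).

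S100A10 had 85.4, 79.1 and 85.5 CPM in siMDC1_E2 and 34.9, 32.2 and 32.4 CPM in siNT_E2 libraries of MM134, the highest S100A10 level of that line. S100A11 had 364, 349 and 367 CPM in siMDC1_E2 and 188, 192 and 186 CPM in siNT_E2 libraries. Both pairs of groups were far apart, with log2 changes of 1.31 ± 0.046 (SE, adjusted p = 5.44e-16) and 0.92 ± 0.031 (SE, adjusted p = 2.9e-16). S100A6 rose by 1.18 ± 0.058 (SE, adjusted p = 1.55e-13), S100A14 by 1.69 ± 0.13 (SE, adjusted p = 2.2e-10) and S100A16 by 1.24 ± 0.12 (SE, adjusted p = 1.73e-08). All of these genes were also above their siNT level, by 0.59 for S100A10, 0.36 for S100A11, 0.31 for S100A6, 0.75 for S100A14 and 0.46 for S100A16, all called. S100A8 and S100A9 did not follow, with 0 counts of S100A8 in the 3 siMDC1_E2 libraries of MM134 and 4 counts of S100A9.

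In MM330 S100A14 had 433, 409.6 and 389 CPM in siMDC1_E2 and 335, 348 and 354 CPM in siNT_E2 libraries, and rose by 0.24 ± 0.055 (SE, adjusted p = 0.00418). S100A10, S100A11, S100A6 and S100A16, all raised in MM134, changed by -0.02 to 0.11 in MM330 and were not called. In HCC1428 the 3 calls were small, at 0.11 ± 0.033 (SE, adjusted p = 0.0146) for S100A10, 0.20 ± 0.053 (SE, adjusted p = 0.00806) for S100A11 and 0.57 ± 0.18 (SE, adjusted p = 0.0218) for S100A14. S100A14 had 2.09, 2.29 and 3.10 CPM in siMDC1_E2 and 1.87, 1.46 and 1.64 CPM in siNT_E2 libraries, with siMDC1_E2 replicate 3 highest, and lost its call without that library (0.39, adjusted p = 0.144) and without siNT_E2 replicate 3 (0.50, adjusted p = 0.0741) or 4 (0.56, adjusted p = 0.0595). Without siMDC1_E2 replicate 2 the calls of S100A10 (0.08, adjusted p = 0.0889) and S100A11 (0.16, adjusted p = 0.051) were lost, and without siNT_E2 replicate 2 that of S100A10 (0.10, adjusted p = 0.061). S100A8 in HCC1428 had 5.99, 5.68 and 6.12 CPM in siMDC1_E2 and 7.28, 7.01 and 6.55 CPM in siNT_E2 libraries, without overlap. The change of -0.24 ± 0.099 (SE, adjusted p = 0.0833) was not called. It was called with the pseudogene class as a covariate, at -0.29 (adjusted p = 0.0228), and without the filter on low counts, at -0.24 (adjusted p = 0.0327). S100A8 in siMDC1_E2 was also lower than in siNT libraries, with a called log2 difference of -0.42 (48.4% of all genes called). ANXA1 rose with S100A11 in MM134 (2.35 ± 0.092 SE, adjusted p = 3.04e-15) and without it in MM330 (0.62 ± 0.086 SE, adjusted p = 5.88e-05).

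The other lists were also tested in the 3 remaining comparisons. Of the 3 further S100 genes tested, E2 lowered 2 in MM134, 1 in MM330 and none in HCC1428, ER knockdown raised 1 in MM134, 1 in MM330 and none in HCC1428, and MDC1 knockdown raised 2 in MM134 and none in either other line. Over all genes E2 lowered 27.2%, 12.6% and 25.7% in MM134, MM330 and HCC1428, ER knockdown raised 29.3%, 15.1% and 22.5%, and MDC1 knockdown raised 25.4%, 10.4% and 13.2%. S100A13 was among the further S100 genes called in MM134, at -0.67 for E2, 0.56 for ER knockdown and 0.89 for MDC1 knockdown. S100A2 passed the low-count filter of MM134 only through its siNT libraries, with 29 counts against 15 in siNT_E2 libraries. It therefore lends no support to the E2 count of that line. Of 16 tested binding partners, E2 raised 6 and lowered 7 in MM134, 2 and 3 in MM330, and 5 and 7 in HCC1428. ER knockdown raised 7 and lowered 5 in MM134, 3 and 7 in MM330, and 4 and 6 in HCC1428, and MDC1 knockdown raised 10 and lowered 4, 5 and 2, and 6 and 4 in the 3 lines. Over all genes, the shares called in either direction were 54.4%, 26.3% and 54.8% for E2, 57.2%, 32.5% and 51.2% for ER knockdown, and 50.3%, 20.8% and 29.1% for MDC1 knockdown, in the same order of lines. After MDC1 knockdown the partners in MM134 included IQGAP1, a scaffold of the cell cortex, higher by 0.86 ± 0.029 (SE, adjusted p = 2.58e-16), and CACYBP, the partner of S100A6, with a change of -0.45 ± 0.045 (SE, adjusted p = 2.28e-08). The genes beside the cluster moved in both directions in MM134 after MDC1 knockdown, with 3 higher and 2 lower of 9, none of 9 passed in MM330, and 1 was higher and 1 lower in HCC1428.

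The knockdowns were also set against each other within a line. In MM134, siFOXA1_E2 libraries held less S100P than siMDC1_E2 libraries, with a log2 difference of -4.12 ± 0.42 (SE, adjusted p = 2.57e-08), and less S100A10 (-0.47) and S100A6 (-0.24), but more S100A14 (0.51) and S100A11 (0.26), all called, where 49.8% of all genes were. Against siNT, the siFOXA1_E2 libraries of MM134 held more S100A14 (1.27), S100A11 (0.62) and S100A16 (0.59) and less S100P (-1.68), all called (56.8% of all genes called). S100P was also lower in siFOXA1_E2 than in siER_E2 libraries of MM134, with a log2 difference of -1.95 ± 0.46 (SE, adjusted p = 0.00108) (51.3% called). In HCC1428, siFOXA1_E2 libraries held more S100A9 than siMDC1_E2 libraries, by 5.52 ± 0.17 (SE, adjusted p = 1.67e-14), and more S100A8, by 4.79 ± 0.079 (SE, adjusted p = 7.37e-18) (45.4% of all genes called). Against siNT, the siFOXA1_E2 libraries of HCC1428 held more S100A9 (4.57), S100A8 (4.37), S100A14 (2.47) and S100A11 (0.64) and less S100A16 (-0.27) and S100A10 (-0.09), all called (48.5% of all genes called). The siER_E2 libraries of HCC1428 held less S100A16 (-0.27) and S100A10 (-0.17) than siNT, both called (21.2% called). Calprotectin was lower in siMDC1_E2 than in siER_E2 libraries of HCC1428, with log2 differences of -0.63 for S100A8 and -0.79 for S100A9, both called (41.1% of all genes). In MM330, S100P was lower in siFOXA1_E2 than in siER_E2 libraries, with a log2 difference of -3.07 ± 0.15 (SE, adjusted p = 3.77e-11), the other 8 tested genes being higher, in a contrast that called 45.9% of all genes. S100A8 and S100A9 among those 8 passed the filter only through siFOXA1_E2 libraries. The same split held between siFOXA1_E2 and siMDC1_E2 libraries of MM330, with S100P at -2.66 and the other 8 genes higher (48.8% called). Between siMDC1_E2 and siER_E2 libraries of MM330, S100A10 differed by 0.45 and S100P by -0.40 (30.6% called).

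Whether these effects differed between lines was tested as a difference of log2 changes in 1 fit of all 45 libraries. The E2 effect was more negative in MM134 than in HCC1428 for 4 of 9 genes, S100A10, S100A11, S100A14 and S100A16 (26.5% of all genes called), and in MM330 no gene differed from HCC1428 (28.3% called). DESeq2 called 0 there as well, and no gene had an unadjusted p below 0.05. The siMDC1_E2 effect was larger in MM134 than in HCC1428 for 5 of 9 genes (18.6% called), led by S100P at 2.50 ± 0.74 (SE, adjusted p = 0.0122) and S100A10 at 1.20 ± 0.092 (SE, adjusted p = 2.13e-13). In MM330 edgeR called no gene as different from HCC1428 in that effect (13.8% called), where 1 gene, S100A11, had an unadjusted p below 0.05 and DESeq2 called 1 gene. The siER_E2 effect differed for 2 genes in MM134 (24.5% called) and for none in MM330 (25.3% called), where 1 gene, S100A10, had an unadjusted p below 0.05 and DESeq2 called 1 gene. The knockdown itself was unequal, with ESR1 at 217 CPM in siER_E2 and 426 CPM in siNT_E2 libraries of HCC1428. The same groups had 60.2 and 533 CPM in MM134 and 22.2 and 284 CPM in MM330. The part of this in the differences between lines was not tested. For siFOXA1_E2, 3 of 9 genes differed in MM134 (30.5% called) and 4 in MM330 (22.2% called). Of the 4, S100A8 rests on 2 counts in the siNT_E2 libraries of MM330 and is not read as a difference between the lines. Called in both were S100A10 and S100A16, and the change of S100A16 was larger by 1.48 ± 0.15 (SE, adjusted p = 8.7e-11) in MM134 than in HCC1428. S100A14 rose less in MM330 than in HCC1428, with a difference of -1.33 ± 0.17 (SE, adjusted p = 5.82e-08). In MM134 its rise differed from that in HCC1428 by -0.27 ± 0.21 (SE), which did not pass.

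Across the 15 group means, each centred on its own line, S100A11 and S100A14 ran most alike among the 10 genes (Pearson r = 0.930), followed by S100A8 and S100A9 (r = 0.883). S100P ran against S100A4 (r = -0.670) and S100A8 (r = -0.573). These are descriptions over groups that share libraries and lines. The genes most like S100A9 among 11829 compared were the epithelial chemokine CCL28 (r = 0.976), IVL (r = 0.975) and AC114811.2 (r = 0.975). Those most like S100A8 were the retinol dehydrogenase RDH16 (r = 0.973), the desmosomal cadherin DSC1 (r = 0.967) and MIR600HG (r = 0.948). Those most like S100P were TESK1 (r = 0.906), SLC9A3R2 (r = 0.901) and MED19 (r = 0.895). S100A9 averaged 44.5 CPM in siFOXA1_E2 libraries of HCC1428 and at most 1.85 CPM in any other group. The likeness of other genes to S100A9 therefore rests largely on that group.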

How the data were processed

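The authors deposited 1 table of whole-number counts per gene for 45 libraries, made per the labels' protocols from stranded poly(A) libraries sequenced as read pairs. STAR 2.6.0a, limma and GRCh38 (hg38) are named in the submitters' processing notes; the counting tool, annotation and strand setting are not given in the sources used here. Totals ran from 21043426 to 36738812 counts. Every column had a sample and every row a gene name.

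Counts were fitted per line (15 libraries) and over all 45 with edgeR 4.0.16 in R 4.3.3: filterByExpr, TMM scaling, quasi-likelihood test, Benjamini-Hochberg adjustment over all genes tested and a threshold of 0.05. There were 12 main and 18 other within-line comparisons, 8 differences between lines and 3 line comparisons in siNT. CPM used TMM scaling over the 45 libraries, and CPM per kb the exon union of GENCODE release 29. With 1 to 3 counts in the lower group the count ratio is given with its 95% exact interval, and with 0 a bound from a floor of 3 counts over the group; both cover counting error only. Which members passed the filter only through 1 group was checked by repeating it without each group. The edgeR fit was tested on simulated data. Alternatives were RLE scaling, no filter, a replicate block, DESeq2 1.42.0, limma-voom (limma 3.58.1), the compared libraries only, the lower pseudogene share only, that class as a covariate, and leaving out each library.

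The S100 genes and all lists were chosen with earlier results of these data known. Of the other lists, the rule named the 2 highest and 2 lowest log2 changes among called genes whose group mean reached 10 CPM and whose libraries did not overlap; genes like a member were the 3 with the highest correlation of line-centred group means (log2 of CPM plus 0.5), for the 3 members of widest range. No protein sequences were used here. Promoters came from the RefSeq table for GRCh38.p14.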

Additional observations from a re-analysis of the deposited data

Results flagged for a closer look

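In 18 cases the effect of a treatment on an S100 gene passed a test of the difference between 2 lines, at an adjusted p below 0.05 (edgeR quasi-likelihood test in the fit of 45 libraries). S100A8 after FOXA1 knockdown in MM330 is among the 18 but is not read as a difference, for the reason given below. All values are differences of log2 changes, a lobular line minus HCC1428, the ductal line, and n was 3 libraries in each group.

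Of these, 14 were between MM134 and HCC1428. The E2 effect was more negative in MM134, with differences of -0.94 ± 0.26 (SE, adjusted p = 0.00452) for S100A14, -0.69 ± 0.093 (SE, adjusted p = 1.05e-07) for S100A10, -0.64 for S100A16 and -0.59 for S100A11. After ER knockdown the differences were 0.40 ± 0.094 (SE, adjusted p = 0.001) for S100A10 and 0.32 ± 0.090 (SE, adjusted p = 0.00537) for S100A11. The S100A11 difference was 0.21 without libraries of high pseudogene share, which left only replicate 1 of the HCC1428 siER_E2 libraries. ESR1 averaged 217 CPM in siER_E2 and 426 CPM in siNT_E2 libraries of HCC1428, and 60.2 and 533 CPM in MM134. The part of this unequal knockdown in the differences was not tested. After FOXA1 knockdown S100A16 stood apart by 1.48, the annexin partner S100A10 by 0.89 and S100A11 by 0.55, with adjusted p = 8.7e-11, 2.78e-10 and 3.59e-06. After MDC1 knockdown 5 genes rose more in MM134, S100P by 2.50, S100A10 by 1.20, S100A16 by 1.15, S100A14 by 1.14 and S100A11 by 0.73. The S100P value rests on few counts in HCC1428, where no library exceeded 0.333 CPM.

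The other 4 were between MM330 and HCC1428, all after FOXA1 knockdown. S100A10 rose more in MM330 by 0.73 ± 0.087 (SE, adjusted p = 1.26e-08) and S100A16 by 0.70 ± 0.11 (SE, adjusted p = 4.18e-06), while S100A14 rose less, with a difference of -1.33 ± 0.17 (SE, adjusted p = 5.82e-08). The S100A8 difference of 3.21 ± 0.76 (SE, adjusted p = 0.00155) rests on 2 counts in the siNT_E2 libraries of MM330, which set its size, and S100A8 passed the low-count filter of MM330 only through its siFOXA1_E2 libraries, so it is given as a value and not as a difference between the lines.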

How the results depend on the processing

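The calls over all 10 genes and 12 main within-line comparisons kept their direction under each alternative run, with none reversed. Among these comparisons, RLE scaling, DESeq2 and limma-voom each lost 1 call. The fit of the compared libraries lost 4 calls and gained 1, and dropping the filter lost 2 and gained 2. Calls from the libraries with the lower pseudogene share are not summed here. In HCC1428 that fit held only siER_E2 replicate 1 and siNT replicate 3 of those groups. With the pseudogene class as a covariate 3 calls were gained and none lost. Leaving out 1 library lost a call 26 times and gained one 6 times, against 544 unmoved values. Counts of called S100 genes that moved by over 1.5 times were small. For E2 in HCC1428 there were 2 with the covariate, against 1. For MDC1 knockdown, MM330 had 1 with the lower pseudogene share against 2, and HCC1428 had 1 to 3 over the fits that left out 1 library, the lowest without siMDC1_E2 replicate 2, against 3. Between MM134 and HCC1428, the E2 difference gave 2 in limma-voom against 4, and the ER knockdown difference gave 4 in DESeq2 and 4 without the filter, against 2. Between MM330 and HCC1428, the ER knockdown difference gave 1 in DESeq2 and 1 with the covariate, and the MDC1 knockdown difference gave 1 in each of RLE scaling, DESeq2 and the fit without the filter, against 0. Over all genes, the lower pseudogene share gave 3092 calls for E2 in MM330 against 4690, 2208 for MDC1 knockdown in MM330 against 3710, and 3595 for the ER knockdown difference between MM330 and HCC1428 against 5428. These fits had fewer libraries, and whether depth or library class moved them was not tested.

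Same-numbered libraries did not deviate together as a rule, but some pairs did. Whether the replicate numbers pair the libraries of some groups is therefore not known. Deviations of same-numbered libraries had median correlations of 0.0026, -0.0026 and 0.0024, with minima of -0.39, -0.47 and -0.47 and maxima of 0.24, 0.67 and 0.50 in MM134, MM330 and HCC1428, and 1 of 30, 8 of 30 and 4 of 26 pairs were over 0.1. The fit with the replicate number as a block called 5, 5, 7 and 6 S100 genes in MM134 for E2, ER, FOXA1 and MDC1 knockdown, 4, 2, 9 and 2 in MM330, and 1, 2, 4 and 1 in HCC1428. It lost 5 calls of the main comparisons and gained none. Its FOXA1 counts include S100A8 in MM134 and S100A8 and S100A9 in MM330, which passed the low-count filter only through siFOXA1_E2 libraries and lend no support. The shares of all genes called in that fit are not given here. Low counts limit S100A7 everywhere, S100A8 and S100A9 in MM134 and MM330, and S100P in HCC1428.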
